A study of Mus musculus with 8 samples.

Results

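The 10 genes described here are 9 cathepsins, *Ctsa*, *Ctsb*, *Ctsc*, *Ctsd*, *Ctsh*, *Ctsk*, *Ctsl*, *Ctss*, and *Ctsz*, and *Lamp1*, a lysosomal membrane protein gene. They were taken by symbol from the 16994 genes of the deposited table, and all 10 passed the filter on low values, a mean CPM (counts scaled to a common library size) of 1 or more, which left 12999 genes for testing. Bulk RNA sequencing covered 4 regions, the left ventricle and the zones of infarct, border, and remote muscle, in WT mice and in mice with a whole-body knockout of TIGAR (TKO), a fructose-2,6-bisphosphatase, as 1 library for each genotype and region. The mice were male. The paper names a C57BL/6N line with the Tigar tm1a allele as the origin of its floxed Tigar mice. For the whole-body knockout it refers to earlier work, and the strain is not given there. For the 3 zones, the left anterior descending coronary artery was permanently ligated at 16 weeks of age to cause myocardial infarction (MI), and tissue was taken 4 weeks later. The left ventricular libraries serve here as the reference, and whether those hearts were normal or sham operated is not given in the sources used here. Each infarct zone library pooled RNA from 3 mice, and no group has a second library, so no ratio between 2 libraries has a replicate check.

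Cathepsins are proteases that are made as inactive proenzymes, sorted to acidic endosomes and lysosomes, and activated there by cleavage. They degrade proteins delivered by endocytosis and autophagy, and macrophages and bone-resorbing osteoclasts also secrete some of them to cleave elastin and collagen. In the healing heart they are known both from the lysosomes of cardiomyocytes and from the macrophages that clear dead muscle. Most members are cysteine proteases, whereas cathepsin D is an aspartic protease and cathepsin A a serine carboxypeptidase. LAMP1 is no protease and is a main glycoprotein of the membrane that bounds the lysosome.

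*Tigar*, the targeted gene, had 1965, 1066, 2215, and 1997 estimated counts in the WT left ventricle, infarct, border, and remote zones, against 51, 87, 79, and 87 in the TKO libraries, as the labels state. Total counts lay between 27429240 and 33799249. Counts were scaled by edgeR's TMM factors, which were 1.54 and 1.26 in the WT and TKO infarct zones and between 0.866 and 0.956 elsewhere. With library totals alone as the scale, the log2 ratio of every gene shifts by -0.29 for TKO over WT in the infarct zone, and by 0.83 in WT and 0.54 in TKO for the infarct zone over the left ventricle. The other ratios shift by between -0.10 and 0.14. All intervals are exact 95% binomial intervals. They reflect counting error alone, and reads lacking molecular identifiers need not be separate molecules.

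*Ctsk* and *Ctss* are neighbors on chromosome 3 of GRCm38, on the plus strand from 95499256 to 95509362 and from 95526786 to 95556403, with 17423 bases and no annotated gene between them. *Lamp1* lies on chromosome 8 from 13159161 to 13175338. The 250 bases before the RefSeq start sites of these 3 genes (GRCm38.p6, plus strand) are shown. On the TMM scale *Ctss* and *Ctsk* had the widest relative range of levels and *Lamp1* the narrowest, and the genes were chosen for this after their values were seen. With library totals as the scale the range of *Lamp1* was wider. The windows are chr3:95526536-95526785 for *Ctss*, chr3:95498960-95499209 for *Ctsk*, and chr8:13158911-13159160 for *Lamp1*. Capitals mark CACGTG, the E-box core read by the lysosomal transcription factors TFEB and TFE3, and GAGGAAG, which holds the GGAA core of ETS factors such as PU.1, on either strand and with no overlap between them.
Ctss: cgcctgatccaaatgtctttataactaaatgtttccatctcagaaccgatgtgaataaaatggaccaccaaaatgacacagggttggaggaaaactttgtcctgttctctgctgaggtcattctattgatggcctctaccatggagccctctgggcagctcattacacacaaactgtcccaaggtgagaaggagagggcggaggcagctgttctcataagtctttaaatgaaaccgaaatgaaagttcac
Ctsk: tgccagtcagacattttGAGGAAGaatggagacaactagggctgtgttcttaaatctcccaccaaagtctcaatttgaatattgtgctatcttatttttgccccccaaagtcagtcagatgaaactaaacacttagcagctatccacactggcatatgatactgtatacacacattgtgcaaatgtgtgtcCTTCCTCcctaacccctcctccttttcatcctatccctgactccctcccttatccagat
Lamp1: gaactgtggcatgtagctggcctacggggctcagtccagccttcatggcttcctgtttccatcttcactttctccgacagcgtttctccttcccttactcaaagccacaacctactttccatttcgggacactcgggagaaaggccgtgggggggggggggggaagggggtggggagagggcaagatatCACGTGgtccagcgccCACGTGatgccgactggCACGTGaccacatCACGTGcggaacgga
The *Lamp1* window held 4 CACGTG matches, the *Ctsk* window 2 GAGGAAG matches, and the *Ctss* window neither. Only these whole strings were searched, so GGAA followed by other letters, as in GAGGAAA of the *Ctss* window, is not marked. The RefSeq start of *Ctsk* lies before the start of the gene given above, and of the 9 windows it is the only one for which the bases soon after the RefSeq start were not found in a GENCODE M21 transcript of its gene. RefSeq windows were at hand for 8 of the 10 genes, 9 windows in all, and *Ctsb* and *Ctsh* had none. CACGTG was found 2 times before the RefSeq start of *Ctsd*, 1 time before that of *Ctsl*, and 1 time before the second start of *Ctsa*. GAGGAAG was found 2 times before *Ctsc*. By the GENCODE M21 gene bounds, the *Ctsl* window and the second *Ctsa* window lie inside their genes, and the *Ctsd* window lies mostly inside its gene. Of all 32851 windows, 6.021% held CACGTG and 10.61% held GAGGAAG. The site of AP-1 factors, TGANTCA, was in 6.749% of all windows and in none of these 9. These matches describe letters, not binding.

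Levels of different genes were compared as TMM-scaled CPM per kb of the longest coding transcript. On that scale *Ctsd*, which encodes the main aspartic protease of the lysosome, was the highest of the 10 in every library, between 410 and 610 CPM per kb. *Lamp1* was second, between 167 and 191, and *Ctsb*, the most abundant cysteine cathepsin transcript, lay between 87.3 and 126. *Ctsk*, which encodes the collagen-cleaving cathepsin of osteoclasts, was the lowest in the WT left ventricle, at 2.82 CPM per kb, and reached 44.9 in the WT infarct zone. *Ctss* went from 17.1 to 113 CPM per kb between the same libraries. The level of *Ctsl* depended on the transcript chosen: its longest coding transcript has 6168 bases and its principal one 1971, which put it at 25.8 or 80.6 CPM per kb in the WT left ventricle.

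As a share of the summed level of the 9 cathepsins, which does not depend on the scale of a library, *Ctsd* made up 69.3% in the WT left ventricle and 72.2% in the TKO left ventricle. In the infarct zone its share was 43.9% in WT and 52.5% in TKO. *Ctss* made up 2.25% and 1.53% of the sum in the left ventricle of WT and TKO, and 12.1% and 7.63% in the infarct zone. Its share in TKO was thus lower than in WT in both regions, and also at the border (2.66% against 4.75%) and in remote muscle (2.20% against 3.52%). With principal transcripts in place of the longest ones, an alternative chosen after seeing the data, the share of *Ctsd* was 64.3% and 40.2% in the WT left ventricle and infarct zone, and 67.2% and 48.2% in the TKO libraries.

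**Figure D1:**
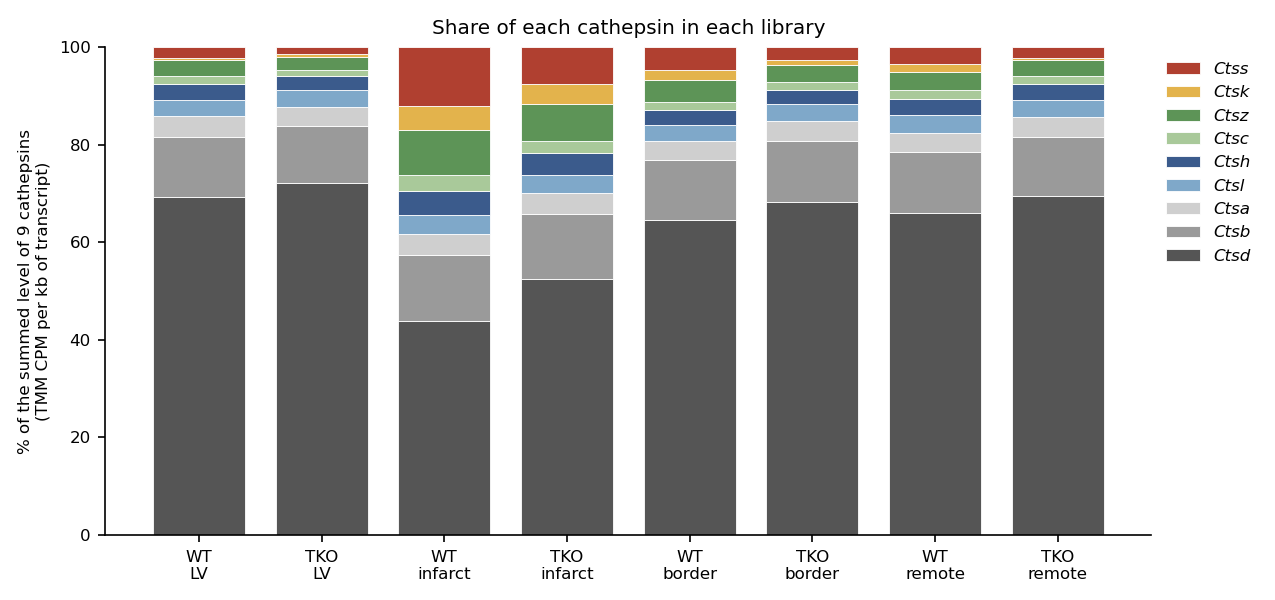
Stacked bars give the share of each of 9 cathepsins, in percent of their summed level (TMM CPM per kb of the longest coding transcript), in each of the 8 libraries. *Ctsd* takes 69.3% of the WT left ventricle bar and 43.9% of the WT infarct zone bar, while *Ctss* takes 2.25% and 12.1%.

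Against the left ventricle, 5 of the 10 genes rose in the infarct zone across both genotypes and none fell by edgeR's quasi-likelihood test at an adjusted p under 0.05. All 5 encode cysteine proteases. The background was large, since 28.2% of all genes tested were called higher there and 28.6% lower. With library totals as the scale, 7869 genes were called higher and 1084 lower, in place of 3670 and 3715. The median log2 difference was 0.56 over the 10 genes and 0.02 over all genes. DESeq2 called 7 members higher and 1, *Ctsd*, lower, where it called 27.0% of all genes higher and 28.4% lower. Genotypes stood in for replicates in this comparison, so its p-values, like those below, bear on these libraries and not on mice. In bulk tissue, fewer cells of a type and less RNA per cell cannot be told apart.

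*Ctss* encodes the elastin-cleaving cathepsin that also trims the invariant chain of MHC class II in antigen-presenting cells. It had 634 counts in the WT and 453 in the TKO left ventricle, 6493 and 3166 in the infarct zone, 1603 and 792 in the border zone, and 1153 and 650 in the remote zone. In TMM-scaled CPM these were 23.1 and 17.5, 153 and 88.6, 52.0 and 26.7, and 37.9 and 21.6. The WT library was thus above the TKO library in each region, and both infarct zone libraries were above all others. Lower in the order, the counting intervals of the TKO border zone (24.9 to 28.6), the WT left ventricle (21.4 to 25.0), and the TKO remote zone (19.96 to 23.3) overlapped from one to the next. The infarct zone over left ventricle ratio was 6.63 (95% interval, 6.11 to 7.21) for WT and 5.06 (4.59 to 5.60) for TKO, and the edgeR log2 difference across genotypes was 2.53 (SE 0.15, adjusted p = 0.00027).

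*Ctsk* had 117 and 153 counts in the WT and TKO left ventricle, 2872 and 1884 in the infarct zone, 771 and 315 in the border zone, and 558 and 178 in the remote zone. These were 4.27 and 5.91, 67.9 and 52.7, 25.0 and 10.6, and 18.3 and 5.91 CPM. The left ventricle was the only region where the TKO library was the higher one, and the TKO remote zone did not stand above the TKO left ventricle. The ratio of the infarct zone to the left ventricle was 15.9 (13.2 to 19.3) for WT and 8.92 (7.56 to 10.6) for TKO, the highest of the 10 genes in both genotypes. Its edgeR log2 difference was 3.52 (SE 0.47, adjusted p = 0.0018), and the SE was the widest of the 10.

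*Ctsz* encodes a carboxypeptidase of the cysteine class that is abundant in monocytes and macrophages. It had 1023 and 888 counts in the WT and TKO left ventricle, 5317 and 3322 in the infarct zone, 1588 and 1122 in the border zone, and 1340 and 1021 in the remote zone. *Ctsc* encodes dipeptidyl peptidase I, which activates the granule serine proteases of neutrophils, mast cells, and cytotoxic lymphocytes, and its counts in the same order were 1008 and 815, 4041 and 2438, 1373 and 1113, and 1337 and 1089. *Ctsh*, whose product acts mainly as an aminopeptidase, had 1094 and 1040, 3177 and 2216, 1229 and 1053, and 1291 and 1172 counts. Each of these 3 genes was highest in the WT infarct zone and second in the TKO infarct zone, on the CPM scale as well. In edgeR they rose in the infarct zone by 1.59 (SE 0.12, adjusted p = 0.00036), 1.25 (SE 0.11, adjusted p = 0.00053), and 0.77 (SE 0.10, adjusted p = 0.0018) on the log2 scale, respectively.

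*Ctsb* and *Ctsl* encode broadly expressed endopeptidases of the lysosome. *Ctsb* had 12142 and 12047 counts in the WT and TKO left ventricle, 25194 and 19274 in the infarct zone, 14501 and 12846 in the border zone, and 14305 and 12474 in the remote zone. *Ctsl* had 4354 and 4515, 9496 and 7244, 4953 and 4577, and 5432 and 4561. Their CPM spanned a narrow range, from 414 to 596 for *Ctsb* and from 151 to 224 for *Ctsl*. Neither passed the edgeR test in the infarct zone (adjusted p = 0.098 and 0.059), whereas DESeq2 called both higher (adjusted p = 0.023 and 0.029). With a filter of at least 10 counts in every library, edgeR also called *Ctsl* higher.

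*Ctsd* had 30664 and 33588 counts in the WT and TKO left ventricle, 36885 and 34176 in the infarct zone, 34226 and 31891 in the border zone, and 33884 and 32213 in the remote zone. On the CPM scale its lowest libraries were the 2 infarct zones, at 872 in WT and 956 in TKO, against 1070 to 1297 in the others. The infarct zone over left ventricle ratio was 0.779 in WT and 0.737 in TKO but 1.38 and 1.07 with library totals as the scale, so its direction rests on the scaling. *Ctsa* encodes protective protein, which stabilizes neuraminidase and β-galactosidase, and had 3240 and 3169, 6169 and 4786, 3506 and 3419, and 3559 and 3384 counts. *Lamp1* had 10462 and 11024, 16570 and 14111, 12714 and 11072, and 12460 and 11618. Neither *Ctsa* nor *Lamp1* passed the edgeR or the DESeq2 test in the infarct zone, and *Lamp1* stayed between 373 and 426 TMM-scaled CPM in all 8 libraries. This narrow range rests on the scaling too. With library totals as the scale, the infarct zone over left ventricle ratio of *Lamp1* was 1.82 in WT and 1.35 in TKO, against 1.03 and 0.927 with TMM. On that scale edgeR called both *Ctsa* and *Lamp1* higher there, as it did 7869 of all genes.

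**Figure D2:**
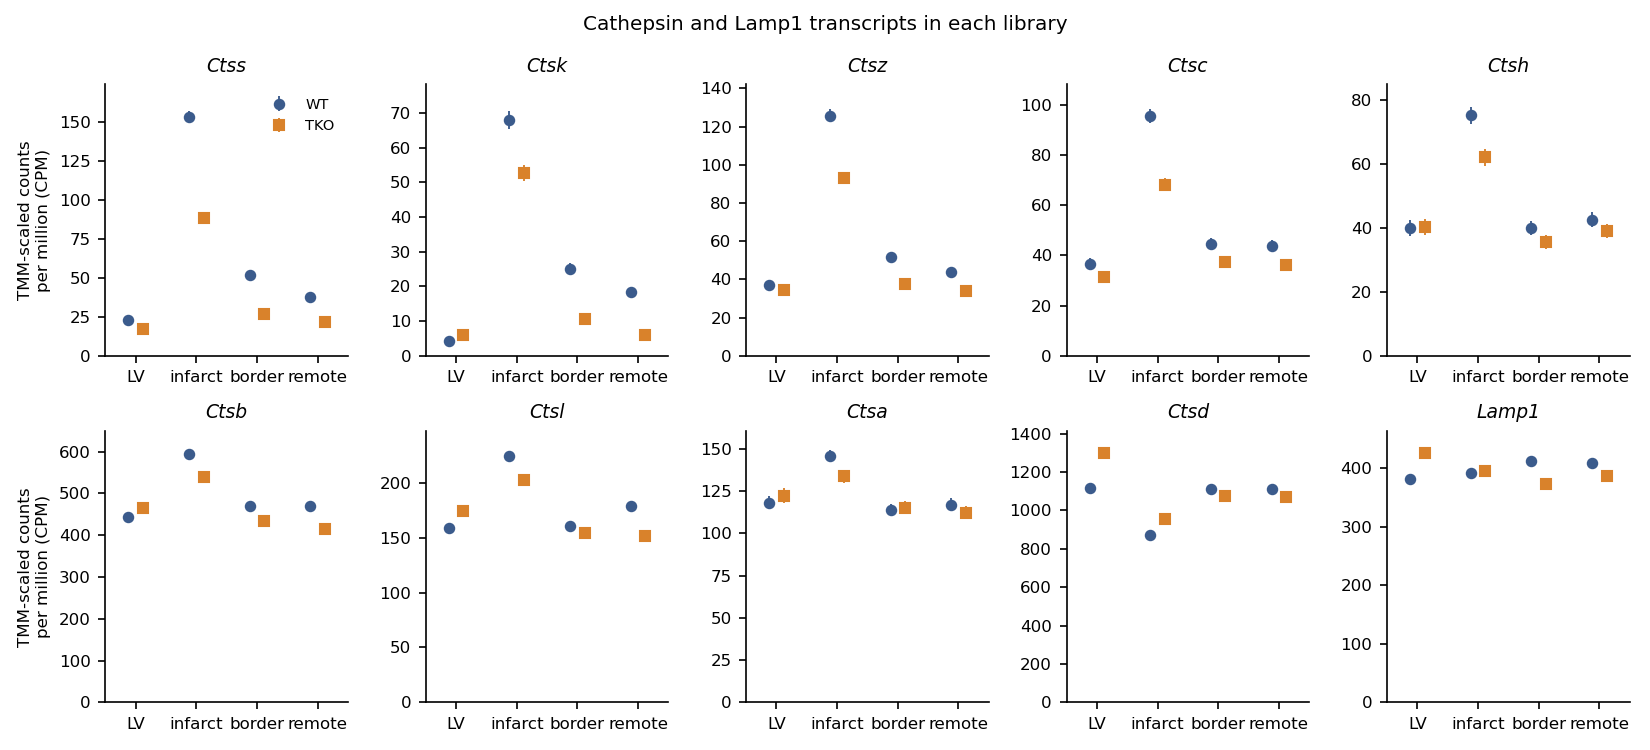
Points give TMM-scaled CPM of each gene (y axis, from 0) in the left ventricle (LV) and the infarct, border, and remote zones (x axis), with circles for WT, squares for TKO, 1 library each, and bars for 95% counting intervals. *Ctss* reaches 153 CPM in the WT infarct zone and 88.6 in the TKO infarct zone, and *Lamp1* lies between 373 and 426 throughout.

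In the border zone no member passed the edgeR test against the left ventricle, where 0.669% of all genes were called higher and 0.0462% lower. At an unadjusted p under 0.05, 4 members were higher (*Ctsc*, *Ctsk*, *Ctss*, and *Ctsz*), as were 11.4% of all genes, and none was lower, as were 6.54%. DESeq2 called 2 of them higher, *Ctsk* and *Ctss*, where it called 3.66% of all genes higher and 0.769% lower. The edgeR adjusted p of *Ctss* was 0.063 (log2 difference 0.89, SE 0.15), and across the alternatives it was called with library totals as the scale and with a filter of at least 10 counts in every library. In the remote zone edgeR called 0 of all genes tested, with 1378 at an unadjusted p under 0.05, among them *Ctss* (6.91% of all genes were higher and 3.69% lower at this threshold), and DESeq2 called 162 genes and no member.

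The zones of the 2 genotypes stood apart for *Ctsk*. The WT ratios to the left ventricle were 5.86 (4.82 to 7.18) for the border zone and 4.30 (3.51 to 5.29) for the remote zone, whereas the TKO ratios were 1.80 (1.48 to 2.20) and 1.001 (0.802 to 1.25). For *Ctss* the border zone ratios of WT and TKO were 2.25 (2.05 to 2.47) and 1.53 (1.36 to 1.72), and the remote zone ratios 1.64 (1.49 to 1.81) and 1.23 (1.09 to 1.39). Each genotype's ratios share 1 left ventricle library. The other members lay between 0.825 and 1.38 times the left ventricle in these zones.

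**Figure D3:**
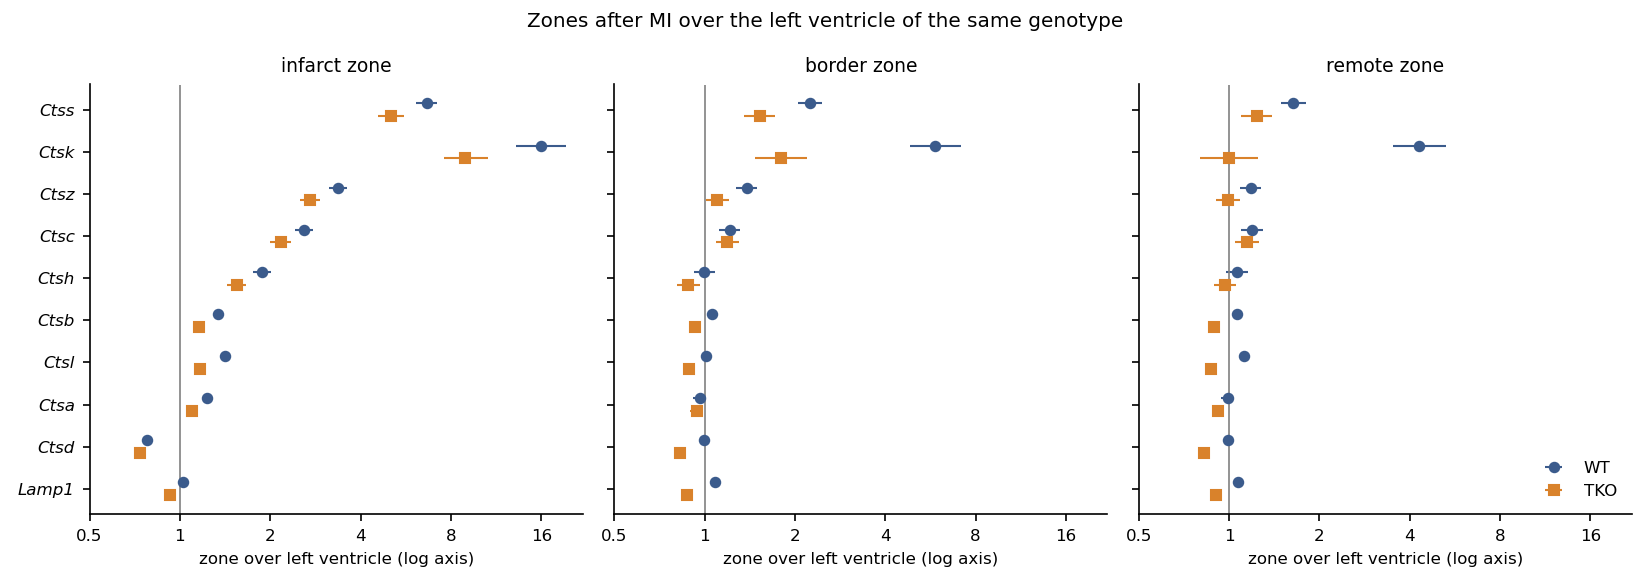
Points give each zone over the left ventricle of the same genotype (x axis, log scale) for the 10 genes, WT as circles and TKO as squares, with 95% counting intervals. *Ctsk* stands at 15.9 in WT and 8.92 in TKO in the infarct zone and at 4.30 and 1.001 in the remote zone.

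Across the 4 regions, no member passed edgeR's test of TKO against WT, in a fit that called 0.0769% of all genes higher in TKO and 0.0615% lower (10 and 8 genes, or 12 and 44 with library totals as the scale). At an unadjusted p under 0.05, 3 members were lower in TKO (*Ctsc*, *Ctss*, and *Ctsz*) and none was higher, against 8.79% of all genes lower and 7.43% higher. DESeq2 called *Ctss* and *Ctsz* lower, where it called 1.65% of all genes lower and 0.985% higher. The median log2 TKO over WT was -0.12 over the 10 genes and -0.0024 over all genes tested. *Ctss* had the largest difference, a log2 TKO over WT of -0.75 (SE 0.10, edgeR adjusted p = 0.11). Its adjusted p was 0.034 without the 2 left ventricle libraries, 0.040 with library totals as the scale, and 2.81e-06 in DESeq2, and over all alternatives it ran from 2.81e-06 to 0.997, the last without regions as blocks. For *Ctsz* the log2 value was -0.35 (SE 0.08, edgeR adjusted p = 0.19), for *Ctsc* -0.31 (SE 0.07, adjusted p = 0.19), and for *Ctsk* -0.74 (SE 0.32, adjusted p = 0.32).

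Within regions, the TKO over WT ratio of *Ctss* was 0.756 (0.669 to 0.854) in the left ventricle. It was 0.577 (0.553 to 0.602) in the infarct zone, 0.513 (0.471 to 0.559) at the border, and 0.570 (0.517 to 0.628) in remote muscle. These ratios were below 1 under each scaling. *Ctsk* had ratios of 1.38 (1.08 to 1.78), 0.776 (0.732 to 0.823), 0.424 (0.371 to 0.484), and 0.322 (0.271 to 0.382) in the same order. These were the highest ratio of the 10 genes in the left ventricle and the lowest in the border and remote zones. *Ctsk* was the sole member at least 2-fold lower in TKO. It was so in the border zone, as were 3.26% of all genes, and in remote muscle, as were 2.39%. No member was 2-fold lower in the left ventricle or the infarct zone, where 3.62% and 1.43% of all genes were.

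*Ctsz* ratios were 0.919, 0.739, 0.734, and 0.770 in the left ventricle, infarct, border, and remote zones, and those of *Ctsc* 0.856, 0.714, 0.842, and 0.823. *Ctsh* was at 1.01, 0.825, 0.890, and 0.918, *Ctsb* at 1.05, 0.905, 0.920, and 0.881, and *Ctsl* at 1.10, 0.903, 0.960, and 0.849. These 3 cysteine cathepsins thus had ratios above 1 in the left ventricle and below 1 in the zones after MI, although the left ventricle interval of *Ctsh* held 1. *Ctsa* was at 1.04, 0.918, 1.01, and 0.961, with intervals that held 1 in 3 regions. *Ctsd* was at 1.16, 1.10, 0.968, and 0.961, and *Lamp1* at 1.11, 1.01, 0.905, and 0.942. With library totals as the scale, the infarct zone ratios of *Ctsd* and *Lamp1* fell below 1, to 0.894 and 0.822, and the border zone ratio of *Ctsa* to 0.947.

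Of the 10 genes, 7 had a ratio above 1 in the left ventricle, 2 in the infarct zone, 1 at the border, and 0 in remote muscle. With library totals as the scale these counts were 7, 0, 0, and 0. The median ratio of the 10 genes was 1.04, 0.864, 0.897, and 0.865 in the 4 regions, against 1.01, 1.005, 0.998, and 0.992 over all genes tested.

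**Figure D4:**
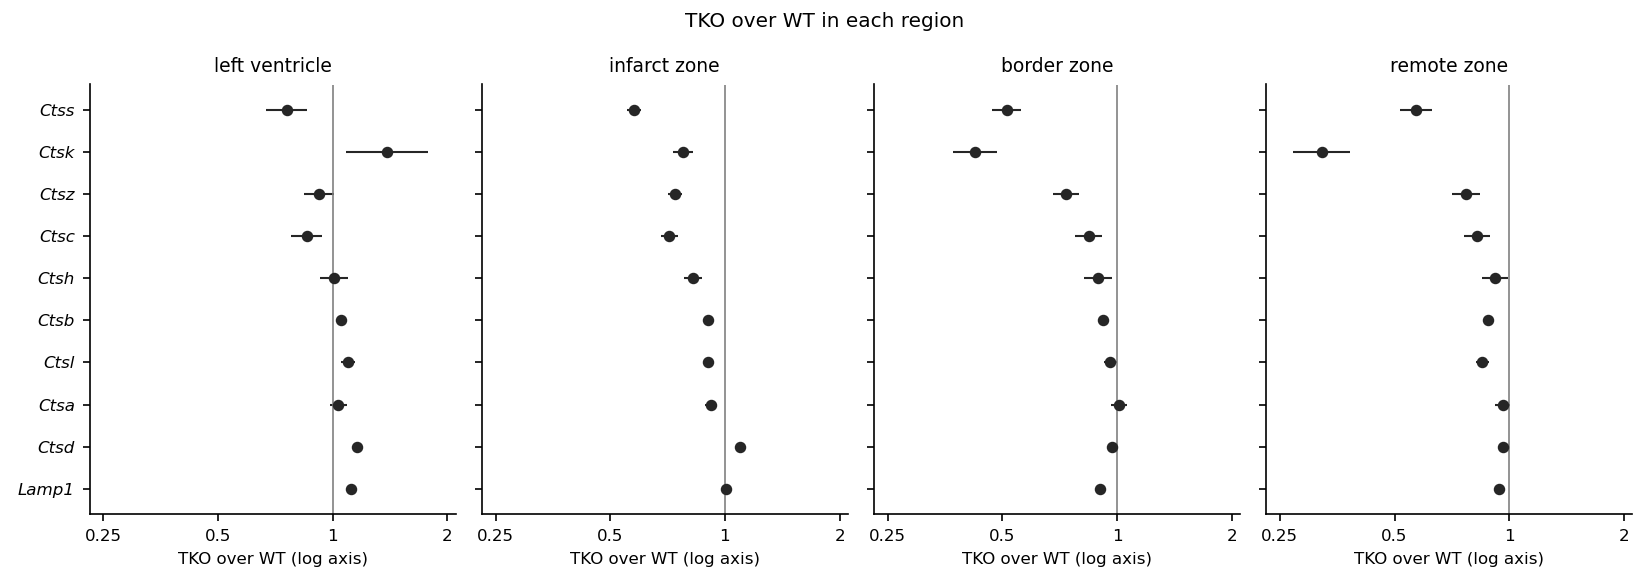
Points give TKO over WT (x axis, log scale) for the 10 genes in each region, with 95% counting intervals and a line at 1. *Ctss* lies left of 1 in all 4 panels, and *Ctsk* moves from 1.38 in the left ventricle to 0.322 in the remote zone.

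A further term asked whether the genotype difference in the 3 zones after MI differed from that in the left ventricle, which rests on 1 left ventricle library per genotype. edgeR called 0.423% of all genes higher and 0.223% lower for this term (55 and 29 genes, or 132 and 143 with library totals as the scale), and no member, while the log2 value was below 0 for all 10. The unadjusted p was under 0.05 for *Ctsk* (log2 value -1.48, SE 0.56, adjusted p = 0.28) and *Ctss* (-0.45, SE 0.15, adjusted p = 0.23), both below 0, against 7.74% of all genes below 0 and 9.02% above 0 at that threshold. DESeq2 called 280 genes and no member. A different genotype effect after MI was therefore not shown for these genes.

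All 10 macrophage markers were higher in the infarct zone than in the left ventricle by edgeR, as were 28.2% of all genes. Across regions edgeR called none of them in TKO against WT, all 10 were lower at an unadjusted p under 0.05, as were 8.79% of all genes, and DESeq2 called 4 lower, as it did 1.65% of all genes. In the left ventricle 9 of the 10 markers had a TKO over WT ratio below 1, as did *Ctsc*, *Ctss*, and *Ctsz*, whereas the other 7 members were above 1. In TKO the border zone over left ventricle ratio was above 1 for all 10 markers. It was 1.19, 1.80, 1.53, and 1.10 for *Ctsc*, *Ctsk*, *Ctss*, and *Ctsz*, and from 0.829 to 0.942 for the other 6 members. The summed level of the markers ran from 362 CPM in the TKO left ventricle to 1765 in the WT infarct zone, and none of the 10 markers was at 0 in any library. *Adgre1*, which encodes F4/80, had TKO over WT ratios of 0.840, 0.783, 0.827, and 0.799 in the left ventricle, infarct, border, and remote zones, and *Csf1r*, the receptor of the macrophage growth factor CSF1, had 0.803, 0.785, 0.826, and 0.786. *Cd68*, itself a lysosomal membrane protein, was at 1.05, 0.728, 0.700, and 0.606, and *Lyz2*, which encodes lysozyme, at 0.904, 0.752, 0.673, and 0.604. *Ptprc*, the leukocyte antigen CD45, was lower in TKO across regions by edgeR (log2 value -0.67, adjusted p = 0.043), with ratios of 0.636, 0.598, 0.630, and 0.657.

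The *Ctss* ratio lay below those of all 10 macrophage markers in the infarct zone, where they ran from 0.677 to 0.922, and in the remote zone, where they ran from 0.604 to 0.911, although its interval there reached 0.628. In the left ventricle and border zone it lay within their range. Ratios of 8 fibroblast markers ran from 0.336 to 0.897 in the border zone and from 0.333 to 0.967 in the remote zone, with *Col1a1*, the collagen I chain, at 0.559 and 0.675 and *Pdgfra* at 0.897 and 0.967. *Ctsk* lay inside the first range and, with an interval that reached 0.382, just below the second. In the left ventricle 5 fibroblast markers had ratios above 1 and 3 below 1 (0.808 to 1.53), and in the infarct zone all 8 were below 1 (0.609 to 0.894). *Ctsk* lay inside both of these ranges, at 1.38 and 0.776. The summed fibroblast level ran from 874 CPM in the WT left ventricle to 8277 in the WT infarct zone. The 8 cardiomyocyte markers went the other way in the infarct zone, with ratios from 1.64 to 3.41, the highest being that of *Myh6*, the α-myosin heavy chain gene, and their summed level was 7872 CPM in the WT and 17423 in the TKO infarct zone. Neutrophil markers were scarce, with a summed level of at most 47.9 CPM, and *Mpo* had 28 counts or fewer in each library. The part of these cell types in the cathepsin values was not tested.

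**Figure D5:**
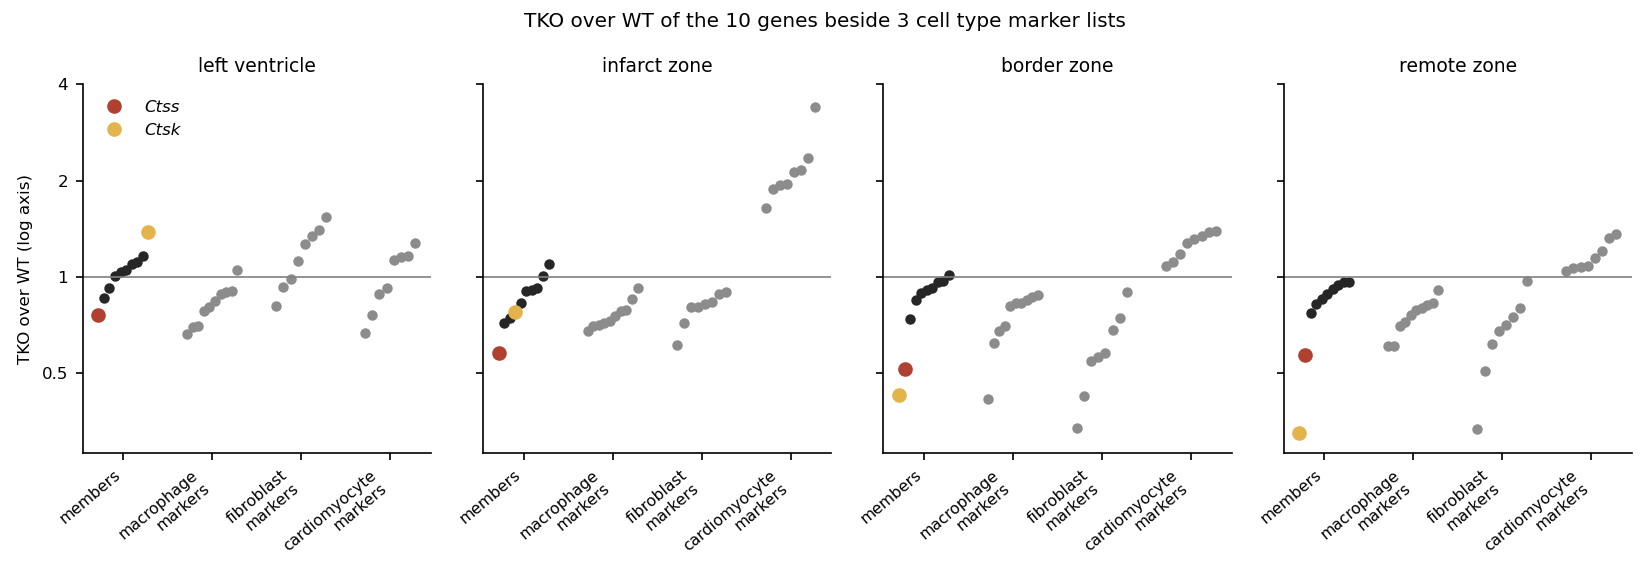
Each point is 1 gene's TKO over WT ratio (y axis, log scale), ordered by size within 4 groups (x axis): the 10 members, 10 macrophage, 8 fibroblast, and 8 cardiomyocyte markers, with 1 panel per region. *Ctss* at 0.577 lies below every macrophage marker in the infarct zone panel, and *Ctsk* at 0.322 is the lowest point of the remote zone panel.

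Among genes that act with the members, *Cd74*, the invariant chain that cathepsin S trims, had TKO over WT ratios of 0.422, 0.603, 0.770, and 0.708 in the left ventricle, infarct, border, and remote zones. All 6 tested genes of the MHC class II pathway were higher in the infarct zone than in the left ventricle by edgeR, as were 28.2% of all genes. Their TKO over WT ratios were below 1 in every region. None was called in TKO against WT by edgeR. At an unadjusted p under 0.05, 5 were lower, as were 8.79% of all genes. DESeq2 called 3 lower, as it did 1.65% of all genes. In contrast to *Ctss*, whose lowest ratio was in the border zone, *Cd74* was lowest in the left ventricle. Of 4 tested cathepsin inhibitors, *Cst3* (cystatin C), *Cstb* (cystatin B), and *Serpinb6a* rose in the infarct zone by edgeR, by 0.83, 0.91, and 0.34 on the log2 scale. Their TKO over WT ratios were 1.21, 1.21, and 1.01 in the left ventricle and 0.763, 0.678, and 0.975 in the infarct zone. *Lgmn*, the asparaginyl endopeptidase that cleaves several procathepsins, was at 1.03, 0.810, 0.843, and 0.852.

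Of 29 tested hydrolases that are not proteases, edgeR called 22 higher and 3 lower in the infarct zone, and of 6 other lysosomal proteases 5 higher and none lower. Of 13 other lysosomal membrane proteins 7 were called higher and 2 lower, with *Lamp2* at a log2 difference of 0.42 (adjusted p = 0.029). Of 16 subunits of the V-ATPase, the pump that acidifies the lysosome, 4 were called higher and 7 lower. Over all genes tested, edgeR called 28.2% higher in the infarct zone and 28.6% lower. Against WT, no gene of these 4 lists was called in TKO by edgeR. DESeq2 called 1, a membrane protein gene, lower, as it did 1.65% of all genes. At an unadjusted p under 0.05, 6 hydrolases, 2 proteases, 2 membrane proteins, and 2 V-ATPase subunits were lower, and 1, 0, 1, and 1 higher, where 8.79% of all genes were lower and 7.43% higher. The partners of cathepsin A, *Neu1* and *Glb1*, had TKO over WT ratios from 0.924 to 1.01 and from 1.01 to 1.08, and *Psap*, which encodes the saposins, from 1.03 to 1.14. Of the cathepsins outside the 10, *Ctso* rose in the infarct zone (log2 difference 0.78, edgeR adjusted p = 0.0033) and *Ctsf* fell (-0.44, adjusted p = 0.020). Unlike most members, *Ctsf* was higher in TKO in every region, with ratios of 1.09, 1.17, 1.44, and 1.14 in the left ventricle, infarct, border, and remote zones. Its log2 TKO over WT across regions was 0.27 (edgeR unadjusted p = 0.019, adjusted p = 0.24), and that of *Ctso* was -0.11 (adjusted p = 0.56).

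Over the 8 libraries, the genes whose log2 CPM most resembled the mean of the 10 members were *Vat1*, *Cd9*, *Anxa2*, *Il1rap*, and *Trem2*, a receptor of lipid-associated macrophages, with Pearson r from 0.9974 to 0.9995. Members with a wide range, such as *Ctsk* and *Ctss*, weigh most in that mean, since each gene kept its own range. In WT these genes had infarct zone over left ventricle ratios from 2.93 (*Il1rap*) to 7.06 (*Trem2*), against a member median of 1.65. *Far1* came closest to *Ctss* (r = 0.998), *Meox1*, a transcription factor gene of activated fibroblasts, to *Ctsk* (r = 0.996), and *Mrfap1* to *Ctsd* (r = 0.993). The 8 points share 2 genotypes and 4 regions, and each r describes these libraries only. *Meox1* had 292 and 350 counts in the WT and TKO left ventricle, 2157 and 1456 in the infarct zone, 963 and 506 in the border zone, and 700 and 410 in the remote zone. Like *Ctsk*, *Ctsb*, *Ctsh*, and *Ctsl*, it had a TKO over WT ratio above 1 in the left ventricle alone. Since *Meox1* was picked for its likeness to *Ctsk*, this shared pattern is no separate result.

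Strandedness of the libraries is not given in the sources used here. Annotated genes overlap 8 of the members (*Pltp* and *Neurl2* at *Ctsa*, *Fdft1* at *Ctsb*, *Gm26522* at *Ctsc*, *Gm49369* at *Ctsd*, *Gm47123* and *Gm49230* at *Ctsl*, *Hmgb1-ps5* at *Ctss*, *Nelfcd* at *Ctsz*, and *Grtp1* at *Lamp1*), so reads of shared stretches could be assigned to either. *Ctsh* and *Ctsk* had no overlapping gene.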

How the data were processed

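Bulk RNA sequencing of 8 libraries, 1 per genotype and region, was analyzed from the estimated counts deposited by the authors as whole numbers per gene, without normalization. Per the methods and the processing notes, the authors trimmed reads with Trim Galore 0.6.5, estimated transcript abundance with Kallisto 0.46 on mm10, used tximport to obtain gene values, and compared groups with edgeR 3.34.1. Here, genes whose mean CPM was 1 or more were fitted in R 4.3.3 with edgeR 4.0.16 (quasi-likelihood test, TMM, region plus genotype, Benjamini-Hochberg adjustment over 12999 genes, calls at adjusted p under 0.05) and with DESeq2 1.42.0. Regions stood in for replicates. Ratios of 2 libraries carry Clopper-Pearson intervals, and 2-fold counts used a prior count of 2. Annotation was GENCODE M21. On simulated data of TKO against WT with 12999 genes, edgeR called 100 of 100 genes changed 2-fold, 100 of 100 changed 4-fold, and 11 of 12799 unchanged genes. In that simulation each changed gene had the same fold in every region, and all genes had the same set spread. It therefore does not give the power of the test on these libraries. The alternatives were other scalings, filters, tools, and left-out regions. The named genes were the 10 members, up to 3 genes per list called in TKO against WT, set marker and partner genes, *Tigar*, and the genes of most similar pattern over the libraries, and any others were chosen after their values were seen. The members and lists were chosen with earlier results of these data known. Figures were drawn with matplotlib 3.10.9.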

Additional observations from a re-analysis of the deposited data

How the results depend on the processing

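The members had at least 117 counts in every library. For TKO against WT across regions, 0 members were called, 1 (*Ctss*) with library totals as the scale, and 2 (*Ctss* and *Ctsz*) with DESeq2, and leaving out a region gave 0 to 1, the 1 being *Ctss* without the left ventricle. All genes called there numbered 18, against 56 with library totals, 342 with DESeq2, 8 without regions as blocks, and 3 to 80 when a region was left out. The log2 TKO over WT of *Ctsd* turned from 0.060 to -0.043 with library totals. That of *Lamp1*, -0.016, ran from -0.071 to 0.026 when a region was left out, and was 0.026 without the border zone and 0.0099 without the remote zone. All genes called in the border zone numbered 93, against 200 with library totals and 576 with DESeq2. In the remote zone they numbered 0, against 18, 162, and 3 with other filters. For the genotype difference in the zones after MI they numbered 84, against 275 with library totals, 280 with DESeq2, and 140 with at least 10 counts in every library. In the infarct zone the 5 calls became 9 with library totals, 8 with DESeq2, and 6, with *Ctsl* added, with at least 10 counts in every library. Over all genes the calls there numbered 7385, against 8953, 7197, and 7320 in the same order. With library totals 7869 of all genes were called higher there, against 3670 with TMM. In the border zone the 0 calls became 1 (*Ctss*) with library totals or at least 10 counts in every library, and 2 with DESeq2. With library totals the median ratio of the members was 0.705 for TKO over WT in the infarct zone and 0.839 in the border zone, 2.93 in WT and 1.96 in TKO for the infarct zone over the left ventricle, and 1.18 and 1.14 for the WT border and remote zones over the left ventricle. Members at least 2-fold apart between genotypes then numbered 1 (*Ctss*) in the infarct zone and 2 (*Ctsk* and *Ctss*) in the border zone. Over all genes 613 and 636 were then so far apart, against 498 and 584 with TMM. Across the alternatives run, 103 of 110 log2 TKO over WT values of single members kept their direction and their side of the threshold. The cause of these shifts was not tested.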

Other observations

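Other genes known from bone resorption and cartilage were high in the infarct zone beside *Ctsk*, a group chosen after its values were seen. *Acp5*, the tartrate-resistant acid phosphatase of osteoclasts and macrophages, had 58 and 28 counts in the WT and TKO left ventricle, 357 and 250 in the infarct zone, 130 and 76 in the border zone, and 75 and 24 in the remote zone. *Atp6v0d2*, a V-ATPase subunit of the same cells, had 3 and 5, 300 and 181, 51 and 32, and 64 and 3 counts in that order. The cartilage matrix genes *Acan*, *Col2a1*, and *Chad* had 310, 454, and 1220 counts in the WT infarct zone and 157, 121, and 294 in the TKO infarct zone. By edgeR, *Acp5*, *Atp6v0d2*, *Acan*, *Col2a1*, and *Chad* rose in the infarct zone against the left ventricle (adjusted p from 0.00069 to 0.0060), and none was called in TKO against WT. Of all genes tested, 28.2% were called higher in the infarct zone. Osteoclast-defining genes were near 0, since *Calcr* had at most 6 counts and *Dcstamp* at most 10 in any library.

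The mast cell proteases *Mcpt4* and *Cma1*, which cathepsin C activates, had infarct zone over left ventricle ratios of 0.980 and 0.936 in WT and of 1.79 and 2.45 in TKO. These ratios rest on low values. The 5 listed proteases that cathepsin C activates summed to at most 4.25 CPM in any library, and *Cma1* had 0 counts in the WT border zone. *Mcpt4* had 37 and 17 counts in the WT and TKO left ventricle, 56 and 42 in the infarct zone, 21 and 46 in the border zone, and 43 and 30 in the remote zone, and neither gene passed edgeR's test of the infarct zone (adjusted p = 0.63 and 0.74). The granulocyte genes *S100a8* and *S100a9* had TKO over WT ratios of 0.907 and 0.857 in the left ventricle, 0.535 and 0.525 in the infarct zone, 0.214 and 0.183 at the border, and 0.305 and 0.30 in remote muscle. *Csf3r*, the third neutrophil marker tested, was at 1.36, 0.489, 0.361, and 0.655 in the same order. Across regions edgeR called none of the 3 (adjusted p = 0.19 for both *S100a8* and *S100a9* and 0.28 for *Csf3r*), whereas DESeq2 called 2 of them lower. DESeq2 called 1.65% of all genes lower.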
